A study of Mus musculus with 5 samples.

Results

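The 10 genes described here carry fatty acids into the heart muscle cell, and they were followed in adult mouse cardiomyocytes given reprogramming factors. They encode the lipase and receptors that handle blood lipoproteins (Lpl, Gpihbp1, Vldlr), proteins of uptake across the membrane (Cd36, Slc27a1), binding proteins of the cytosol (Fabp3, Fabp4, Fabp5, Dbi) and an enzyme that activates fatty acids (Acsl1). The genes were chosen by name, with earlier results of these data known. All 10 were among the 12446 genes of the deposited table and passed the filter on low values, leaving none out. Bulk RNA was sequenced from 3 OSKM-CMs libraries (replicates 1, 2 and 3) and 2 Control-CMs libraries (replicates 3 and 5). OSKM-CMs came from male C57BL/6 mice injected at 8 weeks into the thoracic cavity with 4 adeno-associated virus (AAV) vectors, one for each of the tagged factors Oct4-His6, Sox2-Flag, Klf4-HA and Myc-V5, all under the cardiac troponin T promoter (cTnT). Each was given at 2.5 (in units of 10 to the power 10 virus genomes per gram of body weight). Control-CMs came from mice of the same strain, sex and age given AAV-cTnT-BFP at 10 in the same units, which encodes blue fluorescent protein. The mice are described as 12 to 14 weeks old, and the cTnT promoter in every vector limits expression largely to cardiomyocytes, while cells of other types may be carried over in the preparation. Nothing in the labels says whether the libraries came from separate mice, so p-values measure the spread between these libraries only.

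The heart burns mainly fatty acids, most of which arrive as triglyceride in lipoproteins. Lipoprotein lipase, made by the myocyte, is carried to the capillary lumen by Gpihbp1, a protein of capillary endothelial cells, and frees fatty acids there. They pass the endothelium, where Fabp4 is the abundant binding protein, enter the myocyte with the help of Cd36 and Slc27a1, are bound by Fabp3 in the cytosol and are joined to coenzyme A by Acsl1. Fabp4 and Gpihbp1 are therefore called the capillary members here and the others the myocyte members, although Cd36, Fabp5 and Vldlr are also made by endothelial cells.

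The libraries held 2691796 to 2780751 reads over the listed genes in OSKM-CMs and 3519628 and 3861805 in Control-CMs. Genes encoded by mitochondrial DNA took 9.76% to 11.1% of these reads in OSKM-CMs, against 21.2% and 24.7% in Control-CMs. RPKM (reads scaled to gene length and to the library's total) were therefore rescaled with TMM, a trimmed mean of log ratios that equalises the bulk of the genes, and levels are given as scaled RPKM. After this scaling the effective library sizes lay between 3065623 and 3119711 reads, so that raw reads of a gene can also be compared between libraries. The labelled cell type showed in the 10 cardiomyocyte markers, all of which were read in every library and whose scaled RPKM summed to 16305 to 18221 in OSKM-CMs and to 34557 and 38406 in Control-CMs. Of these 10 markers, 9 fell and 1, Actn2, did not pass. With library totals alone 6 were lower and Actn2 was higher (0.64, limma adjusted p = 0.0016). Of all tested genes 14.3% were called lower with TMM. With library totals alone 5.96% were called lower and 36.5% higher. The part of these markers in the results below was not tested.

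All 10 members were lower in OSKM-CMs. Each passed limma at a Benjamini-Hochberg adjusted p below 0.05, where 30.2% of the 10915 tested genes were called, 14.3% lower and 15.9% higher. Their log2 fold changes ran from -1.79 to -0.44 with a median of -1.10, against a median of 0.02 over all tested genes. The cardiomyocyte markers had a median of -1.29, so the fall was not particular to the members. In scaled RPKM the highest OSKM-CMs library lay below the lowest Control-CMs library for all 10 members. That arrangement was seen in 27.9% of tested genes, while 57.9% had groups apart in either direction. On the deposited RPKM, scaled to library totals, the groups overlapped for Fabp3 and Dbi. There OSKM-CMs replicate 2 lay above Control-CMs replicate 5, at 2422 against 2310 for Fabp3 and 58.4 against 56.7 for Dbi. In RNA of a whole preparation, fewer cells of a type and less RNA per cell cannot be told apart. The members fall into a set of 5, Slc27a1, Vldlr, Lpl, Cd36 and Acsl1, that fell to between 27.9% and 48.1% of the control mean and passed in each of 14 other settings, and a set of 5, Fabp3, Fabp4, Fabp5, Gpihbp1 and Dbi, whose calls were lost in 4 to 6 of them. With library totals alone in place of TMM, only the first 5 passed, where 42.5% of genes were called and 5.96% were called lower. Calls over all genes were then 3985 higher and 650 lower, compared with 1740 higher and 1558 lower under TMM. Leaving out 1 library left 5 to 10 members called, 5 of them without Control-CMs replicate 5 and 5 without OSKM-CMs replicate 3. Library totals moved the median of all tested genes to 0.36 on the log2 scale.

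**Figure D1:**
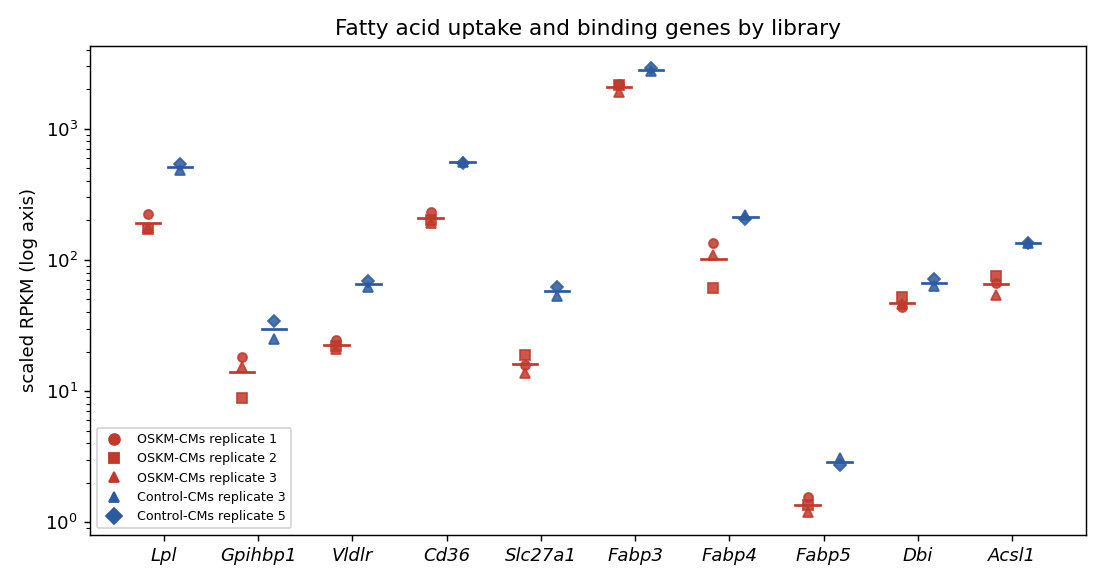
Scaled RPKM of the 10 members on a log axis, with OSKM-CMs libraries (red) left of Control-CMs libraries (blue) for each gene and a bar at each group mean. The red points lie below the blue ones for every gene, with the smallest gaps for Dbi and Fabp3, and OSKM-CMs replicate 2 (square) lies apart for Fabp4 and Gpihbp1.

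Upstream sequences of Cd36 and Acsl1, which fell under every scaling, and of Fabp3, which was called under TMM but not under library totals, are shown, and 6 of the 10 members had an entry in the RefSeq promoter table (build GRCm38.p6), with 11 start sites among them. Lpl, Gpihbp1, Fabp4 and Fabp5 had none. Each is the 250 bases before an annotated start, read 5′ to 3′ on the strand of the gene, with matches to AGGTCA (a core element of PPAR receptor sites), CACGTG (the E-box bound by Myc and others), ATGCAAAT (the octamer bound by Oct4), GGGCGG (a GC box bound by KLF and SP factors) and TATAAA in capitals, sought on both strands. The Cd36 window is chr5:17835897-17836146 on the minus strand, the Acsl1 window, at the first of 2 starts, is chr8:46470787-46471036 on the plus strand, and the Fabp3 window is chr4:130308488-130308737 on the plus strand.
Cd36: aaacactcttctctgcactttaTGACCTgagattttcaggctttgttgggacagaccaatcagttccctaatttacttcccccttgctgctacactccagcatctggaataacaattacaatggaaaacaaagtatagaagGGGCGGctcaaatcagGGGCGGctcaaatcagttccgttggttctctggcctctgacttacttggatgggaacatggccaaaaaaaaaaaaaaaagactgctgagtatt
Acsl1: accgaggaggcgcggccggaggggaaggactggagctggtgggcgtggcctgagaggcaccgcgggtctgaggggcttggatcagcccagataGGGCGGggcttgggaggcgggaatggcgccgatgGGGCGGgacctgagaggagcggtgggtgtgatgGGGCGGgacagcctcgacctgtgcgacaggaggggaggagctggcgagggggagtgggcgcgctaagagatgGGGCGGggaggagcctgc
Fabp3: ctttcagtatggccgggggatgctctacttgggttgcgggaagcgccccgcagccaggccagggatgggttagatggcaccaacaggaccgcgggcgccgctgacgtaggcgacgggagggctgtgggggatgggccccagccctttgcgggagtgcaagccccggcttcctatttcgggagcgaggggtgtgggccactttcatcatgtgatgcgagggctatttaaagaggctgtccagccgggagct
In the Cd36 window 1 AGGTCA lay on the opposite strand at -228 and 2 GGGCGG at -109 and -93. The Acsl1 window held 4 GGGCGG, at -157, -123, -90 and -18, and the Fabp3 window held no match to any of these letters. The window at the second Acsl1 start, which is not shown, held no match either. Nor did those at the first starts of Vldlr and Slc27a1 or at either start of Dbi. Among 32851 windows of that length in the table, GGGCGG was in 32.7%, AGGTCA in 14.0%, TATAAA in 12.4%, CACGTG in 6.02% and ATGCAAAT in 1.60%. Over the 11 member windows GGGCGG was in 5, CACGTG in 1 start of Slc27a1, and ATGCAAAT and TATAAA in none. Motifs did not overlap one another in the windows shown. A match is a run of letters and not a bound site, and no match says nothing of a factor.

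Among the proteins that handle lipoproteins, Lpl (ENSMUSG00000015568.8), which encodes lipoprotein lipase, had 222, 171 and 176 scaled RPKM in OSKM-CMs (replicates 1, 2 and 3 in that order throughout), against 482 and 538 in Control-CMs (replicates 3 and 5). These rested on 3629 to 4654 reads per OSKM-CMs library and on 10190 and 11262 in controls. The OSKM-CMs libraries were close to one another, and the highest stood well under the lower control. The mean was 189.8 ± 28.4 in OSKM-CMs (SD, n = 3) and 509.8 ± 39.4 in Control-CMs (SD, n = 2), 37.2% of control (log2 fold change -1.43, SE 0.14, limma adjusted p = 0.000536). Vldlr (ENSMUSG00000024924.7), a receptor of triglyceride-rich lipoproteins, had 24.7, 21.9 and 20.8 scaled RPKM in OSKM-CMs against 62.6 and 68.7 in Control-CMs. It fell to 34.2% of control (log2 fold change -1.51, SE 0.13, limma adjusted p = 0.000274), and only 1.54% of tested genes had a lower fold change. Both lipoprotein genes of the myocyte set thus lay below control in each library by a margin larger than the spread within either group, the lower control being 2.17 times the highest OSKM-CMs library for Lpl and 2.53 times for Vldlr.

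Gpihbp1 (ENSMUSG00000022579.4), the endothelial anchor of the lipase, had 18.0, 8.90 and 15.2 scaled RPKM in OSKM-CMs against 25.2 and 34.0 in Control-CMs. The counts behind it were small, with 44, 22 and 37 reads in OSKM-CMs and 62 and 83 in Control-CMs. OSKM-CMs replicate 2 was the lowest library, and the groups did not overlap. The mean was 14.1 ± 4.68 in OSKM-CMs (SD, n = 3) and 29.6 ± 6.25 in Control-CMs (SD, n = 2), 47.5% of control (log2 fold change -1.06, SE 0.29, limma adjusted p = 0.0349). With library totals alone the value was -0.66 (adjusted p = 0.0944).

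Both genes of uptake across the membrane fell strongly. Cd36 (ENSMUSG00000002944.8), the main fatty acid translocase of heart and skeletal muscle, had 233, 201 and 193 scaled RPKM in OSKM-CMs and 561 and 546 in Control-CMs. Reads numbered 2799, 2456 and 2309 in OSKM-CMs and 6827 and 6580 in Control-CMs. The 3 OSKM-CMs libraries and the 2 controls each formed a tight group, with no library between them. Its mean was 209 ± 21.0 in OSKM-CMs (SD, n = 3) and 554 ± 10.7 in Control-CMs (SD, n = 2), 37.7% of control (log2 fold change -1.41, SE 0.12, limma adjusted p = 0.00028). Slc27a1 (ENSMUSG00000031808.6), a fatty acid transport protein that also activates the fatty acids it takes up, had 15.8, 19.0 and 13.7 scaled RPKM in OSKM-CMs against 53.4 and 62.4 in Control-CMs. Of the members it fell furthest, to 27.9% of control (log2 fold change -1.79, SE 0.16, limma adjusted p = 0.000366), and 0.953% of tested genes had a lower fold change.

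Slc27a1 was not the whole of its family. Slc27a4, a broadly expressed relative, had 5.98, 7.43 and 6.23 scaled RPKM in OSKM-CMs and 5.70 and 5.53 in Control-CMs, with no call (log2 fold change 0.19, SE 0.15, limma adjusted p = 0.388). It was called higher with library totals alone (0.54, adjusted p = 0.0291). Slc27a1 held 69.5% ± 1.79 of the summed RPKM of the 3 listed Slc27a genes in OSKM-CMs (SD, n = 3) and 90.7% ± 1.60 in Control-CMs (SD, n = 2). Slc27a4 held 28.3% ± 2.02 in OSKM-CMs and 8.85% ± 1.01 in Control-CMs. Such shares need no scaling between libraries, and those of the groups did not overlap for either gene. The remainder was Slc27a3, with at most 5 reads in a library.

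Acsl1 (ENSMUSG00000018796.6), the principal long-chain acyl-CoA synthetase of the heart, had 66.9, 74.8 and 53.7 scaled RPKM in OSKM-CMs and 136 and 135 in Control-CMs. The controls were nearly equal and every OSKM-CMs library was lower. It fell to 48.1% of control (log2 fold change -1.06, SE 0.15, limma adjusted p = 0.00228). Its relative Acsl5, a synthetase best known from intestine and liver, did the opposite, with 12.8, 14.7 and 19.4 scaled RPKM in OSKM-CMs against 3.66 and 3.79 in Control-CMs (log2 fold change 1.80, SE 0.19, limma adjusted p = 0.000614). Acsl4, which prefers arachidonic acid, rose by 0.59 on the log2 scale (limma adjusted p = 0.0372), while Acsl3 (0.49, adjusted p = 0.0652) and Acsl6 (0.40, adjusted p = 0.177) did not pass. Acsl4 kept its call only without OSKM-CMs replicate 2 among the omissions of 1 library, with values of 0.48 to 0.69 in the others. The share of Acsl1 in the summed RPKM of the 5 Acsl genes was 73.1%, 74.3% and 63.6% in OSKM-CMs and 92.6% in both controls. Acsl5 took 17.2% ± 5.05 in OSKM-CMs (SD, n = 3) and 2.55% ± 0.0703 in Control-CMs (SD, n = 2). The summed level of the 5 genes was 92.2 ± 8.16 scaled RPKM in OSKM-CMs and 146 ± 0.498 in Control-CMs.

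**Figure D2:**
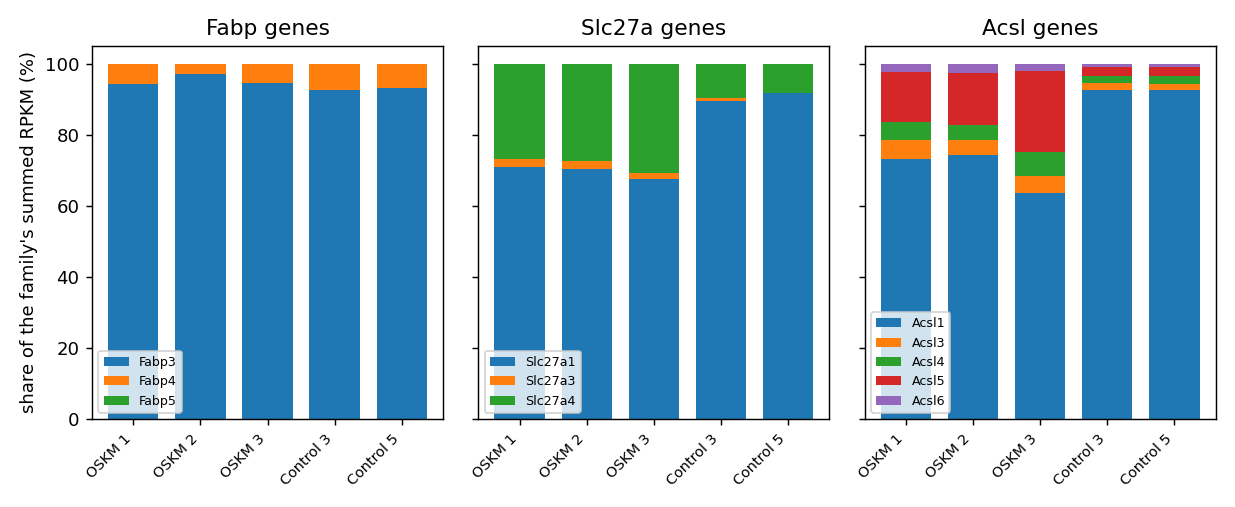
Share of each gene in the summed RPKM of its family in every library, in percent, with OSKM-CMs libraries left of Control-CMs libraries. Acsl1 and Slc27a1 hold a smaller part in all 3 OSKM-CMs libraries, where Acsl5 and Slc27a4 take more, while Fabp3 holds over 92% of the Fabp sum in every library.

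Of the binding proteins, Fabp3 (ENSMUSG00000028773.8), the fatty acid binding protein of heart muscle, was by far the most abundant member. It had 2178, 2159 and 1914 scaled RPKM in OSKM-CMs and 2755 and 2895 in Control-CMs, from 4805 to 5517 reads per OSKM-CMs library and 7018 and 7306 in controls. The groups were separate but near. The mean was 2084 ± 147 in OSKM-CMs (SD, n = 3) and 2825 ± 99.2 in Control-CMs (SD, n = 2), 73.8% of control (log2 fold change -0.44, SE 0.11, limma adjusted p = 0.024). On the deposited RPKM, which are scaled to library totals, the group means were 2340 ± 139 in OSKM-CMs and 2372 ± 88.2 in Control-CMs, which differ by -0.02 on the log2 scale (95% interval -0.25 to 0.20, adjusted p = 0.881 in limma). With totals that leave out mitochondrial DNA genes it was -0.24 (adjusted p = 0.111). The call on Fabp3 thus rested on the scaling, and relative to the median of all genes it was lower under each of them.

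A processed copy of the gene, Fabp3-ps1 (ENSMUSG00000056366.3), was listed with 511, 500 and 415 reads in OSKM-CMs and 609 and 687 in Control-CMs. These were 8.64% to 9.31% of the Fabp3 reads in OSKM-CMs, against 8.68% and 9.40% in Control-CMs, so the 2 rows kept 1 ratio within the spread between libraries. How reads shared between them were assigned is not given in the sources used here. With the reads of the copy added, Fabp3 changed by -0.44 (adjusted p = 0.0251 in limma), a setting chosen after seeing the data.

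Dbi (ENSMUSG00000026385.9), the acyl-CoA-binding protein that takes up the product of Acsl1, followed the pattern of Fabp3. It had 43.8, 52.0 and 45.8 scaled RPKM in OSKM-CMs against 63.5 and 71.0 in Control-CMs, 70.2% of control (log2 fold change -0.50, SE 0.13, limma adjusted p = 0.0207). Under library totals the value for Dbi was -0.09 (95% interval -0.38 to 0.20, adjusted p = 0.588 in limma). Fabp5 (ENSMUSG00000027533.9), the epidermal form that endothelial cells and macrophages also make, was scarce, with 17, 15 and 13 reads in OSKM-CMs and 34 and 30 in Control-CMs. Its level was 1.36 ± 0.18 scaled RPKM in OSKM-CMs (SD, n = 3) and 2.90 ± 0.237 in Control-CMs (SD, n = 2), 47.0% of control. The log2 fold change was -0.72 (SE 0.18, limma adjusted p = 0.0199), a value that the added 1 shrinks at so low a level, and limma voom on the reads gave -1.07 (adjusted p = 0.0199).

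Fabp4 (ENSMUSG00000062515.2), the binding protein of capillary endothelium and adipocytes, had 133, 60.8 and 109 scaled RPKM in OSKM-CMs and 219.9 and 206 in Control-CMs. Reads numbered 260, 120 and 211 in OSKM-CMs and 433 and 401 in Control-CMs. OSKM-CMs replicate 2 was low beside the other OSKM-CMs libraries, and all 3 lay below both controls. The mean was 101 ± 37.0 in OSKM-CMs (SD, n = 3) and 213 ± 10.1 in Control-CMs (SD, n = 2), 47.5% of control (log2 fold change -1.14, SE 0.32, limma adjusted p = 0.0408). Under library totals its value was -0.72 and missed the threshold (adjusted p = 0.132). Without OSKM-CMs replicate 2 it was -0.81 with a smaller limma adjusted p of 0.00585, so the call did not rest on that library.

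The calls on the binding proteins and on Gpihbp1 also turned on single libraries, with directions kept. Leaving out Control-CMs replicate 5, OSKM-CMs replicate 1 or OSKM-CMs replicate 3 gave Fabp3 values of -0.41, -0.47 and -0.38 that missed the limma threshold, with adjusted p of 0.0737, 0.0651 and 0.101. Fabp3 also missed it in limma with no trend and no robust fit (adjusted p = 0.0537). Dbi missed it without the same 3 libraries, with adjusted p of 0.118, 0.0713 and 0.0673. For Fabp4 the omissions that ended the call were Control-CMs replicate 3 (-1.09, adjusted p = 0.143), Control-CMs replicate 5 (-1.19, adjusted p = 0.130) and OSKM-CMs replicate 3 (-1.23, adjusted p = 0.0774). For Gpihbp1 the same 3 omissions gave -1.27, -0.85 and -1.14, with adjusted p of 0.057, 0.158 and 0.0733. For Fabp5 they gave -0.66, -0.79 and -0.67, with adjusted p of 0.0875, 0.055 and 0.0639.

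**Figure D3:**
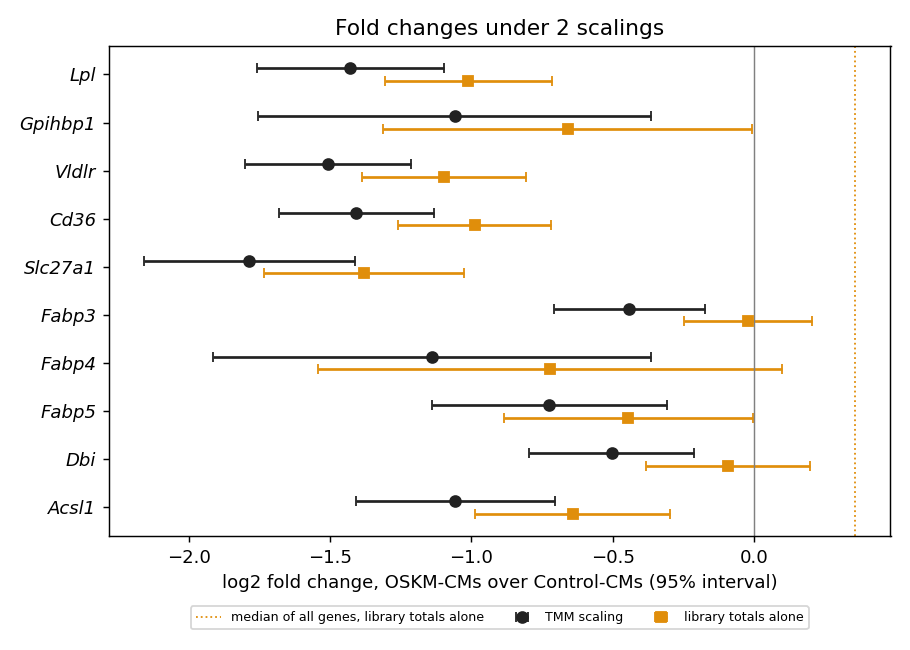
Log2 fold change of each member, OSKM-CMs over Control-CMs, with its 95% interval, under TMM scaling (circles) and under library totals alone (squares). The dotted line marks the median of all tested genes under library totals, 0.36, and the intervals of Fabp3, Fabp4 and Dbi under that scaling include 0.

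Levels per gene length kept a similar order in both groups, with Fabp3 at the top, at 9.98 times Cd36 in OSKM-CMs and 5.10 times in Control-CMs, and Fabp5 at the bottom. In Control-CMs the order ran Fabp3, Cd36, Lpl, Fabp4, Acsl1, Dbi, Vldlr, Slc27a1, Gpihbp1 and Fabp5, and of these neighbours Dbi and Vldlr overlapped. In OSKM-CMs the means kept this order, but Cd36 and Lpl, Fabp4 and Acsl1, and Slc27a1 and Gpihbp1 overlapped. Summed over the members, the level was 2749.7 ± 199 scaled RPKM in OSKM-CMs (SD, n = 3) and 4459.9 ± 139 in Control-CMs (SD, n = 2), and without Fabp3 it was 666 ± 81.1 in OSKM-CMs and 1635 ± 40.2 in Control-CMs. The sum without Fabp3 was 759, 611 and 628 in the OSKM-CMs libraries against 1607 and 1663 in controls.

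The fold changes of the 2 capillary members lay inside the range of the 8 myocyte members. Capillary members had log2 fold changes of -1.14 and -1.06, against a range of -1.79 to -0.44 and a median of -1.23 for the others. The capillary members varied more between libraries, with a coefficient of variation over the OSKM-CMs libraries of 36.6% for Fabp4 and 33.3% for Gpihbp1 and of 7.07% to 16.5% for the myocyte members. The log2 ratio of Fabp4 over Fabp3 was -4.03, -5.15 and -4.14 in OSKM-CMs and -3.65 and -3.82 in Control-CMs, a mean of -4.44 ± 0.62 (SD, n = 3) in OSKM-CMs and of -3.73 ± 0.12 (SD, n = 2) in Control-CMs. All 3 OSKM-CMs values lay below both controls, by a mean of -0.71 (exact permutation test over libraries, two-sided p = 0.3, adjusted 0.4 over 4 ratios). Gpihbp1 over Lpl stood at -3.62, -4.26 and -3.53 in OSKM-CMs and -4.26 and -3.98 in Control-CMs, a difference of 0.32 with overlapping groups (exact permutation p = 0.4, adjusted 0.4). The ratio of Fabp5 over Fabp3 was -10.46, -10.64 and -10.65 in OSKM-CMs and -9.81 and -10.05 in Control-CMs, a difference of -0.65 (exact permutation p = 0.1, adjusted 0.2). With 2 against 3 libraries p cannot go below 0.1, so none of these tests could pass, and they show neither a difference nor its absence.

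The capillary members had a near pattern over the libraries. The level of Gpihbp1 was 13.5%, 14.7% and 14.0% of that of Fabp4 in OSKM-CMs and 11.4% and 16.5% in Control-CMs, and both genes were lowest in OSKM-CMs replicate 2. All 20 endothelial markers of the list were in the table and read in every library, and their scaled RPKM summed to 175, 86.8 and 131 in OSKM-CMs, against 262 and 249.8 in Control-CMs. Of 18 tested, 3 fell (Aqp1, Kdr and Egfl7), 0 rose and 15 did not pass. These 3 were 16.7% of those tested, near the 14.3% of all genes called lower. The median log2 fold change of the 18 was -0.64, and 2 fell with library totals alone, where 5.96% of all tested genes were called lower. Aqp1 had the highest level, with 24.8, 15.2 and 17.9 scaled RPKM in OSKM-CMs and 51.7 and 61.6 in Control-CMs. Relative to the geometric mean of the markers' RPKM with 1 added, the log2 ratio of Fabp4 was 4.19, 3.93 and 4.27 in OSKM-CMs and 4.57 and 4.60 in Control-CMs. The difference was -0.46 (exact permutation p = 0.1, adjusted 0.2). That 1 dampens changes of low markers and was not added to Fabp4. Relative to the sum of the markers, with nothing added, the difference was -0.13. The part of endothelial content in the Fabp4 and Gpihbp1 results was not tested.

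**Figure D4:**
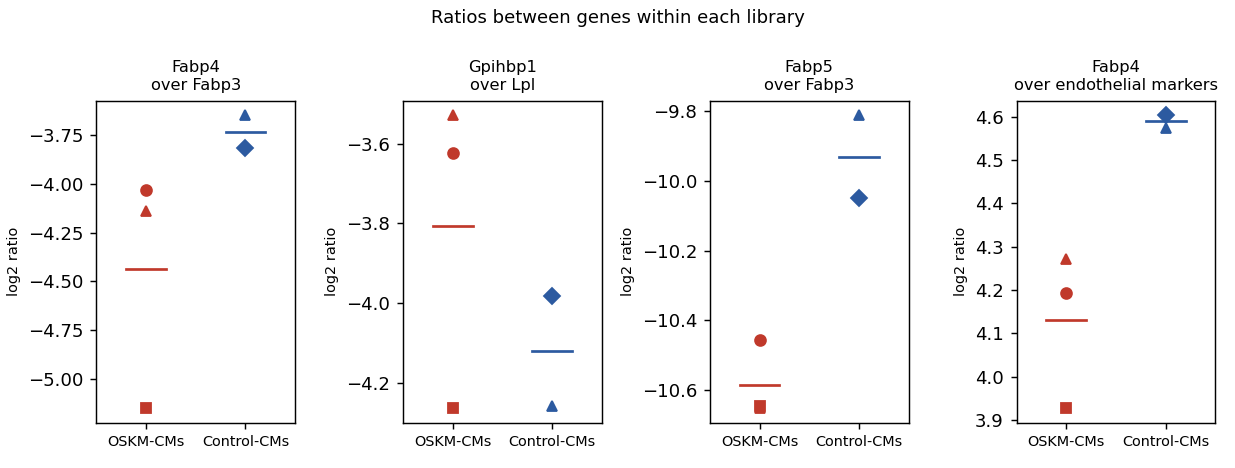
Log2 ratio of RPKM between pairs of genes within each library, with OSKM-CMs (red) left of Control-CMs (blue) and a bar at each mean, each panel with its own axis. The groups overlap for Gpihbp1 over Lpl and are apart for the other ratios. OSKM-CMs replicate 2 (square) is the lowest library for Fabp4 over Fabp3 and Fabp4 over the endothelial markers. For Gpihbp1 over Lpl it lies level with Control-CMs replicate 3, both at -4.26.

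Other cells that make Fabp4, Fabp5, Cd36 or Lpl were also followed by their markers. Of 9 adipocyte markers 1 was in the table, Cidea, which rose (log2 fold change 0.52, limma adjusted p = 0.0418) in OSKM-CMs. The other 8 (Adipoq, Plin1, Cfd, Lep, Retn, Cidec, Car3 and Adig) were not found there, so Cidea alone stood for this list. Macrophage markers (9 of 12 in the table) summed to 27.4, 10.2 and 47.1 scaled RPKM in OSKM-CMs and 59.2 and 15.2 in Control-CMs, and of 7 tested none passed in limma, none with an unadjusted p below 0.05 and none with library totals alone. Fibroblast markers (8 of 10) summed to 194, 89.2 and 203 in OSKM-CMs against 67.4 and 34.5 in Control-CMs, and 4 of 8 rose (Col1a1, Col1a2, Col3a1 and Postn). The mural list (8 of 8) summed to 122, 82.5 and 111 in OSKM-CMs against 179 and 161 in Control-CMs, but of its 8 tested genes 2 rose (Cspg4 and Pdgfrb, 25.0%), 1 fell (Abcc9, 12.5%) and 5 did not pass. OSKM-CMs replicate 2 had the lowest sum among OSKM-CMs libraries in each of these lists and the endothelial one, and the highest for the cardiomyocyte markers. The part of these cells in the members' values was not tested. Ptprc had 0 reads in OSKM-CMs replicate 2 and Mfap5 had 0 in Control-CMs replicate 5.

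Of 61 other genes of fatty acid handling listed by role, 40 were in the table and 37 were tested, of which 4 rose, 8 fell and 25 did not pass, with a median log2 fold change of -0.07. The 12 called were 32.4% of those tested, near the 30.2% of all tested genes. With library totals alone the balance turned, with 12 higher and 6 lower and a median of 0.33. It turned over all tested genes too, where 36.5% were then called higher and 5.96% lower, with a median of 0.36. None of 10 further lipoprotein genes passed in limma (2 had an unadjusted p below 0.05 and 4 were called higher with library totals alone), among them Lmf1, which matures the lipase (log2 fold change -0.17), and Angptl4, which inhibits it (0.69, adjusted p = 0.183). Lrp8, a lipoprotein receptor related to Vldlr, had 24, 30 and 57 reads in OSKM-CMs and 0 in both controls and fell under the filter of a mean RPKM of 1. It passed in the settings that tested it, limma with no filter (adjusted p = 0.01) and limma voom (adjusted p = 0.00415). The membrane group also held Tcf15, Meox2, Vegfb and Apln, which do not encode membrane proteins. In this mixed group 5 of 11 (45.5%) fell and 1 (9.09%) rose, where 14.3% of all tested genes were called lower and 15.9% higher. Tcf15, Vegfb and Apln were among those that fell, and the transporter Slc27a4 did not pass. Tcf15, which with Meox2 drives fatty acid transport genes in mouse heart endothelium, had 3.32, 0.328 and 1.67 scaled RPKM in OSKM-CMs against 10.5 and 8.96 in Control-CMs (log2 fold change -2.11, limma adjusted p = 0.0186) on at most 32 reads a library. Meox2 itself did not pass, and its groups overlapped (log2 fold change -0.16, limma adjusted p = 0.696). The call on Tcf15 was lost with 0.1 added before logs (-2.84, adjusted p = 0.0706) and without Control-CMs replicate 3, Control-CMs replicate 5 or OSKM-CMs replicate 3 (adjusted p of 0.0875, 0.0754 and 0.0559). Vegfb, a growth factor that acts on endothelial cells, fell to 24.1 ± 6.89 scaled RPKM in OSKM-CMs (SD, n = 3), against 77.0 ± 12.9 in Control-CMs (SD, n = 2) (log2 fold change -1.66, limma adjusted p = 0.00213). Apln, the peptide apelin, fell by 1.85 on the log2 scale, the caveolar protein gene Cav1 by 1.03, and Got2, whose product is also found at the plasma membrane, by 0.43, while Zdhhc4, which palmitoylates Cd36, rose by 0.62. Their relatives in the group did not pass in limma: Cav2 (-0.51, adjusted p = 0.167), Ptrf (-0.07, adjusted p = 0.738) and Zdhhc5 (-0.14, adjusted p = 0.453). Got2 missed the threshold with library totals alone (-0.01, adjusted p = 0.966) and without any 1 library other than OSKM-CMs replicate 2, and Zdhhc4 missed it without any 1 library other than OSKM-CMs replicate 3.

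Among 6 other binding proteins 1 fell and 1 rose, 16.7% each way, near the 14.3% lower and 15.9% higher of all tested genes. Scp2, sterol carrier protein, had 60.9, 60.7 and 59.7 scaled RPKM in OSKM-CMs against 90.1 and 92.7 in Control-CMs (log2 fold change -0.59, limma adjusted p = 0.0051). Under library totals Scp2 missed the threshold (-0.17, adjusted p = 0.238). Acbd3, an acyl-CoA-binding domain protein of the Golgi, rose by 0.50 on the log2 scale (limma adjusted p = 0.0323). Leaving out any 1 library ended the call on Acbd3, with values from 0.44 to 0.55. Of 10 activation genes 2 rose (Acsl5 and Acsl4) and 2 fell. These counts were also near the background, where 15.9% of all tested genes were called higher and 14.3% lower. Those that fell, Acot1 and Acot2, were acyl-CoA thioesterases, which reverse activation. The other listed thioesterases did not pass in limma: Acot7 (-0.36, adjusted p = 0.129) and Acot13 (-0.37, adjusted p = 0.0579). Acot1 had 1.04, 2.87 and 1.88 scaled RPKM in OSKM-CMs against 11.7 and 16.2 in Control-CMs (log2 fold change -2.39, limma adjusted p = 0.00122), and Acot2 had 16.7, 19.0 and 10.9 in OSKM-CMs against 41.9 and 48.8 in Control-CMs (-1.52, adjusted p = 0.00291). Acot1 and Acot2 are near-identical in sequence, so their reads may not be fully separated.

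**Figure D5:**
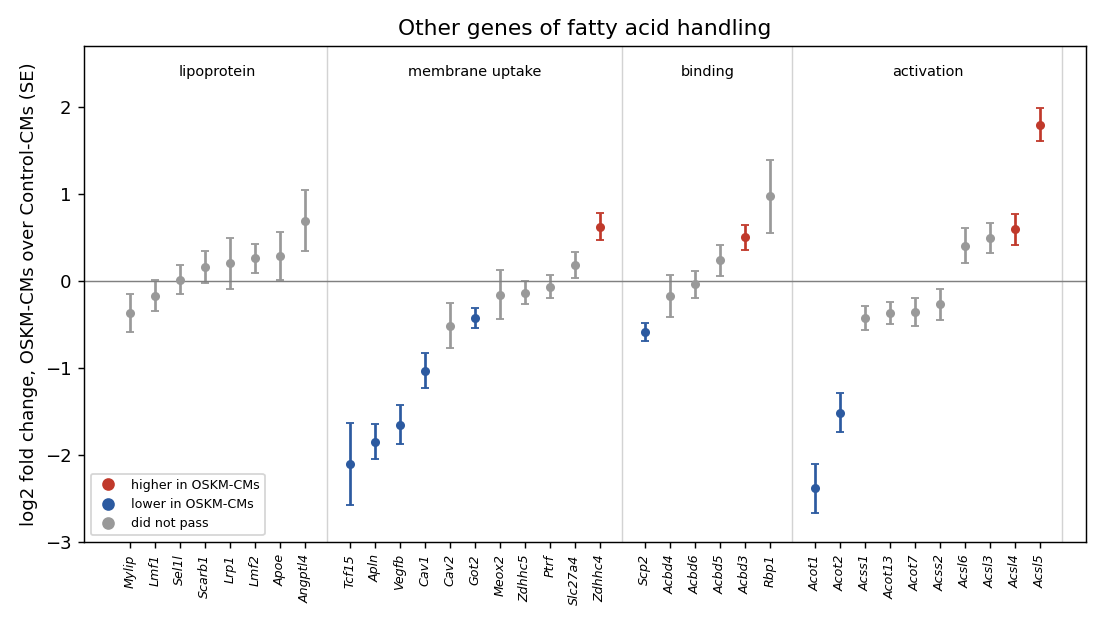
Log2 fold change with its SE for 35 of the 37 tested genes of the wider list, OSKM-CMs over Control-CMs, grouped by role and ordered within each. Acsl5 stands highest at 1.80 and Acot1 lowest at -2.39, and the 8 lipoprotein genes shown all lie in grey, which marks genes that did not pass.

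Genes with the pattern most like Cd36 were Fyco1, Asb5 and Dusp18, whose mean-centred log2 values over the 5 libraries differed from those of Cd36 by a root mean square of 0.03, 0.04 and 0.05. Those most like Fabp4 were Gpr116, Cxcl12 and Cd300lg, at 0.07, 0.08 and 0.12. Gpr116 had 10.0, 4.12 and 7.44 scaled RPKM in OSKM-CMs against 18.7 and 15.2 in Control-CMs, with the same low replicate 2 as Fabp4. In the authors' deposited table the fold changes of the members ran from -1.83 for Slc27a1 to -0.44 for Fabp3, and in the authors' deposited table all 10 were lower, with the largest FDR, 0.0131, for Dbi.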

How the data were processed

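RNA of cardiomyocytes isolated from adult mouse hearts was sequenced in bulk. Per the submitters' processing notes, the tools were STAR 2.5.3, HTSeq, Trimmomatic, FastQC and CASAVA 1.8.2, and the build was mm9. Annotation, strand setting and treatment of shared reads are not given in the sources used here. The authors deposited RPKM per library, a unit inferred from the values. The deposited table also held the authors' log2 fold change and average log2 abundance, the authors' likelihood-ratio score, and the authors' p-value and FDR. RPKM within a library were whole multiples of 1 step per gene, and all 12446 genes (100%) gave whole reads within 0.0001 reads and whole gene lengths, with the common factor of 440 genes set from the authors' abundance. These reads gave library totals and TMM factors (30% of log ratios and 5% of abundances trimmed). Totals cover listed genes only. Recovery and test were checked on simulated data.

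The filter kept genes whose RPKM averaged 1 or more. In R 4.3.3, limma 3.58.1 fitted log2(scaled RPKM + 1) with trend and robust empirical Bayes, two-sided, over all 5 libraries (3 residual degrees of freedom), with Benjamini-Hochberg adjustment and a threshold of 0.05. The added 1 understates changes of low genes. Ratios within libraries were tested by exact permutation. Members and lists were chosen with earlier results of these data known, so their direction is not independent evidence. From the wider list up to 3 called genes per role with the largest changes were named, and family members. Cav1, Cav2, Ptrf, Got2, Zdhhc4, Zdhhc5, Meox2, Lrp8, Acot7, Acot13 and the lipoprotein examples were chosen after their values were seen. So were Col1a1, Col1a2, Col3a1, Postn, Cspg4, Pdgfrb, Abcc9, Actn2, Kdr and Egfl7. Some genes of the wider list are not reported here by name. Alternatives were other added constants, filters, scalings and tests, and leaving out each library. On the recovered reads limma voom called 3704 genes, compared with 3298 in the fit reported.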

Additional observations from a re-analysis of the deposited data

How the results depend on the processing

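No paired analysis was possible because replicate number 3 alone occurs in both groups. Directions of all 10 members were the same in every setting run, and of 140 values 115 also kept their side of the threshold. Slc27a1, Vldlr, Lpl, Cd36 and Acsl1 kept it in all 14 settings each. The number of members called was 10, but 5 with library totals alone and 6 with totals that leave out mitochondrial DNA genes, and 5 to 10 when 1 library was left out (5 without Control-CMs replicate 5 and 5 without OSKM-CMs replicate 3). Over all genes, calls numbered 3298, and 2209 to 3067 with 1 library left out; library totals alone gave 86.0% of calls higher, against 52.8% with TMM. In the wider list 12 genes were called (4 higher, 8 lower), 18 with library totals alone (12 higher, 6 lower) and 8 to 12 with 1 library left out, and of 165 values of these 12 genes 140 kept their call and 25 lost it. The difference in the log2 ratio of Fabp4 over Fabp3 ran from -0.91 to -0.35, of Gpihbp1 over Lpl from 0.18 to 0.55, of Fabp5 over Fabp3 from -0.77 to -0.53 and of Fabp4 over endothelial markers from -0.53 to -0.36 with 1 library left out. A lone control left in such a fit is assumed to vary like the other group. Why calls were lost was not tested, except that leaving a library out leaves fewer samples. Read numbers limit Fabp5 and Gpihbp1 most. Where 0 reads were found, up to 3 are possible, 0.777 to 1.11 CPM in a library, for counting error only.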
